A study of Mus musculus with 4 samples.

Results

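The imprinted growth genes H19, Igf2, Igf2r, Grb10, Ndn, Plagl1, Dlk1, Meg3, Mest and Peg3 were taken by name from 45232 gene rows, and all 10 were found in the count files. They were read in LSK cells, the Lin- Sca-1+ Kit+ cells of mouse blood-forming tissue, which hold stem cells and early progenitors. GFP+ LSK cells were sorted 3 months after GFP+ long-term stem cells had been transplanted, so the libraries hold donor-derived cells of transplanted mice. The donor cells of the Scr group carried a scrambled control and those of the miR-99 KD group a knockdown of the microRNA miR-99. Each group had 2 libraries, taken here as 2 mice, and p-values measure the spread between these libraries. The labels used here give no strain, age, promoter or construct. The comparison asks how RNA of these genes differs in engrafted LSK cells with the knockdown.

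Imprinted genes are read from the copy of 1 parent only, and many of them set the growth of the fetus. Igf2 is a fetal growth factor, Igf2r takes it up and sends it for breakdown, and Grb10 dampens signalling from the insulin and IGF receptors. In mouse blood-forming tissue the loci of H19 with Igf2 and of Dlk1 with Meg3 have been linked to the resting state of long-term stem cells, which are a small part of LSK cells. In bulk libraries such as these, fewer cells of a type and less RNA per cell cannot be told apart.

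Gene counts per library ran from 27295197 to 32350590. Scr 1 held reads of 23052 genes, against 19060 to 19717 in the other libraries. It also stood apart in the number of genes that it held at 10 or more counts while the other 3 libraries held 0. Scr 1 had 196 such genes and Scr 2 had 10, while miR-99 KD 1 had 36 and miR-99 KD 2 had 35. The sort marker Kit stood at 1149 and 1280 CPM (counts scaled to library size with TMM factors) in Scr and at 670 and 774 CPM in miR-99 KD. The Sca-1 gene Ly6a stood at 46.5 and 22.8 CPM in Scr and at 12.4 and 22.3 CPM in miR-99 KD. The mature microRNA was not measured, and no library had a read in the gene rows Mir99a, Mir99b or Mir100.

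Nearly all reads of the imprinted growth genes came from Grb10 and Igf2r. These 2 genes took 94.3% and 98.5% of the reads of the 10 genes in the Scr pair and 97.1% and 98.7% in the miR-99 KD pair. The other 8 genes together had 142 and 32 counts in Scr against 68 and 29 counts in miR-99 KD. Scr 1 had reads of 9 of the 10 genes and Scr 2 of 6, while miR-99 KD 1 had reads of 7 and miR-99 KD 2 of 5. Set per length, as reads scaled to exon length and library size (RPKM), Grb10 had a mean level of 6.76 and Igf2r of 1.79, where the median of the genes tested was 5.57. The mean level of the other 8 genes lay between 0 and 0.209 RPKM. The growth factor, the regulators in the nucleus and the non-coding RNAs of the network thus gave few or no reads in these libraries, while the receptor and the adaptor gave 417 or more in each.

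**Figure D1:**
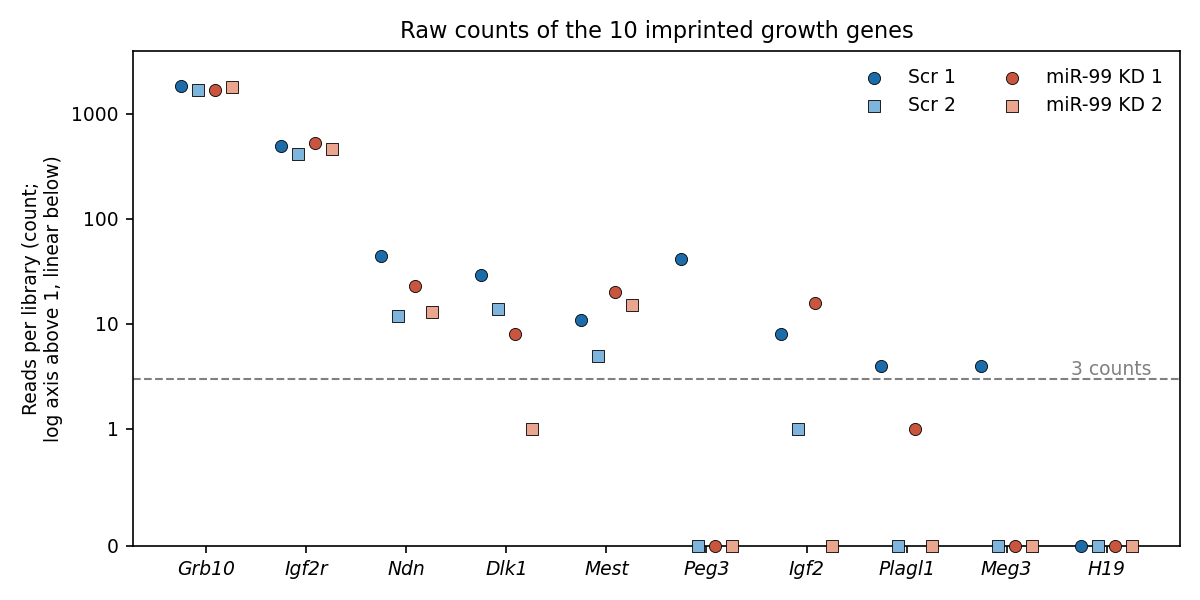
Raw read counts of the 10 imprinted growth genes in each library, on an axis that is logarithmic above 1 and linear below, with a dashed line at 3 counts. Grb10 and Igf2r lie between 417 and 1860 counts in all 4 libraries, H19 lies at 0 in all 4, and Peg3 and Meg3 have reads in Scr 1 only.

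Igf2r (ENSMUSG00000023830, chromosome 17), the receptor that clears Igf2 and also carries lysosomal enzymes, had 491 and 417 counts in Scr against 529 and 468 counts in miR-99 KD. Scaled to library size, its level was 14.7 and 14.3 CPM in Scr against 20.1 and 17.6 CPM in miR-99 KD, and the groups did not overlap, with miR-99 KD the higher. The means were 14.5 ± 0.25 CPM (SD, n = 2) and 18.8 ± 1.7 CPM (SD, n = 2). The log2 difference came to 0.38 ± 0.21 (SE, n = 2 in each group) with a 95% interval of -0.15 to 0.91. It did not pass edgeR's quasi-likelihood test, at a Benjamini-Hochberg adjusted p of 0.429, nor DESeq2, at an adjusted p of 0.461. Airn, the non-coding RNA that lies over Igf2r in antisense and silences the paternal copy, had 18 and 7 counts in Scr against 5 and 18 in miR-99 KD. Airn was chosen after its values were seen.

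Grb10 (ENSMUSG00000020176, chromosome 11), the adaptor that binds active insulin and IGF receptors and limits growth, was the most abundant of the 10 genes. It had 1860 and 1684 counts in Scr against 1710 and 1790 counts in miR-99 KD. Its level was 55.6 and 57.8 CPM in Scr against 64.8 and 67.4 CPM in miR-99 KD, and the groups did not overlap. The means were 56.7 ± 1.6 CPM (SD, n = 2) and 66.1 ± 1.8 CPM (SD, n = 2). The log2 difference came to 0.22 ± 0.14 (SE, n = 2 in each group), with a 95% interval of -0.14 to 0.58, an edgeR adjusted p of 0.487 and a DESeq2 adjusted p of 0.515. Scaled by library totals alone the log2 difference was 0.13 for Grb10 and 0.29 for Igf2r.

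The start regions of the receptor and the adaptor are shown because these are the members whose RNA was well measured, beside those of Dlk1 and Peg3, which had few reads. Each is 250 bases before to 50 bases after a RefSeq start (build GRCm38.p6, which is later than the mm9 build of the count files), written 5′ to 3′ on the strand of the gene, with each CpG, the dinucleotide that DNA methylation marks, in capitals.
Igf2r, minus strand, chr17:12769657-12769956: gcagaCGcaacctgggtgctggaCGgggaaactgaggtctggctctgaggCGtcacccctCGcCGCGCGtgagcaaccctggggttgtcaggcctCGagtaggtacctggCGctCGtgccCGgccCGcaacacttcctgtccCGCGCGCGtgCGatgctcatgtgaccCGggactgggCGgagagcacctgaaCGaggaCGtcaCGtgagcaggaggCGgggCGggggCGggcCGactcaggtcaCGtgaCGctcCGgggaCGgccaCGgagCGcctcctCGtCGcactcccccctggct
Grb10, minus strand, chr11:12037371-12037670: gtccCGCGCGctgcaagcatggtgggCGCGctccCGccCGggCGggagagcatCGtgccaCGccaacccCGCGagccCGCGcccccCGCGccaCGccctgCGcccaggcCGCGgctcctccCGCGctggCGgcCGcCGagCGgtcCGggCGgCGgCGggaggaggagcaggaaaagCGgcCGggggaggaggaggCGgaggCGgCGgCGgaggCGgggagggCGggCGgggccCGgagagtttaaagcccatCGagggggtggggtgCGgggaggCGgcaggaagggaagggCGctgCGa
Dlk1, plus strand, chr12:109452573-109452872: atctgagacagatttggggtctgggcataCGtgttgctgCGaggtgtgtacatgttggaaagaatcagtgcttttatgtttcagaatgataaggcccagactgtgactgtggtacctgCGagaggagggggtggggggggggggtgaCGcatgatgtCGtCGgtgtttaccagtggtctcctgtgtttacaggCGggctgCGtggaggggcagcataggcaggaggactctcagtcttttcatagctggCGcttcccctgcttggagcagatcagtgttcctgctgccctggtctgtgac
Peg3, minus strand, chr7:6730370-6730669: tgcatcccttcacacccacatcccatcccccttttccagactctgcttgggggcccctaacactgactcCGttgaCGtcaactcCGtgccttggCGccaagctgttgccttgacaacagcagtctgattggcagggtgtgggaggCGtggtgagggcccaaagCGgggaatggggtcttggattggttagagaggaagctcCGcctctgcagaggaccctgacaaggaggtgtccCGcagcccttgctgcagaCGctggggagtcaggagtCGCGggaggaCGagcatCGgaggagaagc
The window of Igf2r holds 34 CpG and that of Grb10 holds 45, which is more than in 92.3% and 98.1% of 32851 windows of that length, whose median is 7. The windows of Dlk1 and Peg3 hold 9 and 13 CpG. The table gives Grb10 another start, with a window at chr11:12027922-12028221 that holds 9 CpG. The counts are per gene and do not tell the starts apart. A CpG-rich start did not go with abundant RNA in every member, since the window of Plagl1 holds 26 CpG and 1 of 4 windows of Igf2 holds 24.

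The ligands had few reads. Igf2 (ENSMUSG00000048583, chromosome 7), the fetal growth factor, had 8 and 1 counts in Scr against 16 and 0 counts in miR-99 KD. The groups overlapped, the highest and the lowest library were both miR-99 KD, and Igf2 was too low to be tested. Dlk1 (ENSMUSG00000040856, chromosome 12), a membrane protein of the Notch ligand type that restrains differentiation, had 29 and 14 counts in Scr against 8 and 1 counts in miR-99 KD. Its level was 0.867 and 0.481 CPM in Scr against 0.303 and 0.0377 CPM in miR-99 KD, and the miR-99 KD pair was the lower, with no overlap. The 95% exact binomial intervals of Scr 2, 0.263 to 0.806 CPM, and of miR-99 KD 1, 0.131 to 0.597 CPM, overlapped. These intervals cover counting error only. The log2 difference came to -1.96 ± 1.14 (SE, n = 2 in each group), with a 95% interval of -4.85 to 0.93 and an edgeR adjusted p of 0.448. Leaving out miR-99 KD 1 gave -4.02, and leaving out miR-99 KD 2 gave -1.14.

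Of the nuclear proteins, Ndn (ENSMUSG00000033585, chromosome 7), the growth suppressor necdin, which has been linked to the resting state of mouse stem cells, had 44 and 12 counts in Scr against 23 and 13 counts in miR-99 KD. Its level was 1.31 and 0.412 CPM in Scr against 0.872 and 0.489 CPM in miR-99 KD, and both miR-99 KD libraries lay between the Scr libraries. The log2 difference came to -0.35 ± 0.86 (SE, n = 2 in each group), with a 95% interval of -2.53 to 1.84 and an edgeR adjusted p of 0.874. Without Scr 1 it was 0.70, and without miR-99 KD 2 it was 0.01. Plagl1 (ENSMUSG00000019817, chromosome 10), a zinc finger factor that in mouse acts on other genes of the network, had 4 and 0 counts in Scr against 1 and 0 counts in miR-99 KD.

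Peg3 (ENSMUSG00000002265, chromosome 7), a zinc finger protein expressed from the paternal copy, was found in 1 library only. It had 42 and 0 counts in Scr against 0 and 0 counts in miR-99 KD. The level in Scr 1 was 1.26 CPM with a 95% exact binomial interval of 0.905 to 1.70 CPM. A count of 0 allows a level of up to 0.103 CPM in Scr 2, 0.114 CPM in miR-99 KD 1 and 0.113 CPM in miR-99 KD 2, taking 3 counts as the limit. Usp29, the neighbour of Peg3 in its imprinted cluster, was chosen after its values were seen. It had 18 and 0 counts in Scr against 1 and 0 counts in miR-99 KD. Scr 1 is also the library with 196 genes that the others lack, of which Peg3 is 1, and the part of that library in the values of Peg3 and Usp29 was not tested.

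The non-coding RNAs were at the floor as well. H19 (ENSMUSG00000000031, chromosome 7), which shares an imprinting control region with Igf2, had 0 counts in all 4 libraries. By the limit of 3 counts this allows up to 0.0897 and 0.103 CPM in the Scr pair and 0.114 and 0.113 CPM in the miR-99 KD pair. H19 was therefore not detectable at this depth, and a difference between the groups could not be seen. Meg3 (ENSMUSG00000021268, chromosome 12), the maternally expressed RNA of the Dlk1 locus, had 4 counts in Scr 1 and 0 in the other 3 libraries. Rian and Mirg, which lie downstream of Meg3 in the same imprinted cluster, also had few reads. Rian had 20 and 1 counts in Scr against 0 and 6 counts in miR-99 KD, and Mirg had 5 counts in Scr 1 and 0 in the other 3 libraries.

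The group label names miR-99 without saying which microRNAs of its family were knocked down. The microRNAs that bear on the comparison are the miR-99 family and those made from members, miR-675 from H19 and miR-335 from Mest. Their mature forms in RefSeq (GRCm38.p6) are given 5′ to 3′ with the seed, bases 2 to 8, in capitals.
miR-99a-5p: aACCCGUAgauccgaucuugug
miR-99b-5p: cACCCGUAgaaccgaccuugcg
miR-100-5p: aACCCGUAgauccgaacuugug
miR-675-3p: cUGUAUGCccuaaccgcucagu
miR-675-5p: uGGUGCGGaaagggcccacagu
miR-335-5p: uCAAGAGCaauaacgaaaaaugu
The 3 members of the miR-99 family share 1 seed, and the seeds of miR-675 and miR-335 differ from it and from each other. miR-99a-5p lies at chr16:77598940-77598961 on the plus strand, miR-675-5p at chr7:142577112-142577133 on the minus strand and miR-335-5p at chr6:30741314-30741336 on the plus strand. The gene rows Mir675, Mir335 and Mir483, the last within Igf2, held 0 counts in all 4 libraries. Mature microRNAs are too short for this kind of library, so these rows do not measure them.

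A match to the miR-99 seed was found in 1 of the 10 genes. The transcript sequences of GENCODE M21 were searched on their own strand for TACGGGT, which pairs with bases 2 to 8, and for ACGGGTA, which pairs with bases 2 to 7 and is followed by A. The search covered the 3′ regions of the 8 coding members and the whole transcripts of H19 and Meg3. TACGGGT was found in 2 of the 11 annotated transcripts of Meg3, at the same site, shown with the match in capitals.
Meg3, chromosome 12: gtttctgggcTACGGGTttgcacactt
Neither 7-letter match was found in Igf2r, Grb10, Ndn, Dlk1, Mest, Igf2, Plagl1, Peg3 or H19. Either match was present in 2.41% of 20854 coding genes and in 1.29% of 32946 other genes. Meg3 itself had reads in Scr 1 only and gives no value for a comparison.

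Mest (ENSMUSG00000051855, chromosome 6), a paternally expressed protein of the hydrolase type that sits in the endoplasmic reticulum, had 11 and 5 counts in Scr against 20 and 15 counts in miR-99 KD. Its level was 0.329 and 0.172 CPM in Scr against 0.758 and 0.565 CPM in miR-99 KD, and the miR-99 KD pair was the higher, with no overlap. The log2 difference came to 1.38 ± 0.83 (SE, n = 2 in each group), with a 95% interval of -0.73 to 3.49 and an edgeR adjusted p of 0.462. The exons of Mest share 23.1% of their bases with those of Copg2, an abundant neighbour on the other strand, with 2908 to 3949 counts per library. Reads in the shared part can be set aside as ambiguous or, where the annotation used differs, counted for either gene. With genes that have a row in the files, H19 shares 9.15% of its exon bases, Meg3 8.29%, Igf2 1.71% and Plagl1 0.486%, and the exons of Igf2r, Grb10, Ndn, Dlk1 and Peg3 overlap no other exons.

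**Figure D2:**
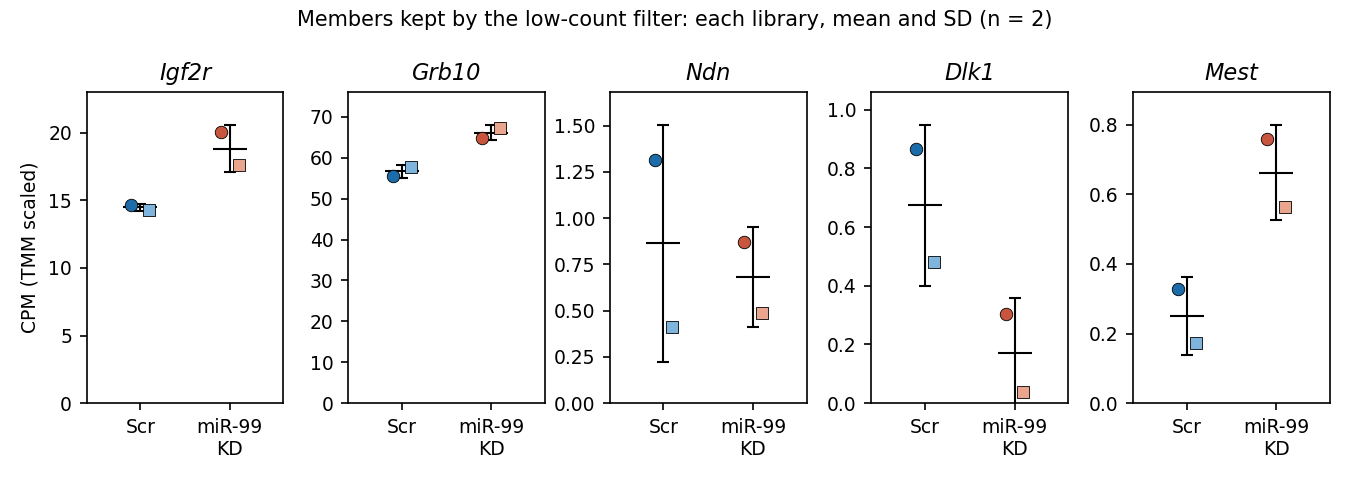
Level in CPM of the 5 imprinted growth genes that passed the filter on low counts, with library 1 of each group as a circle, library 2 as a square, and the mean and SD of each group (n = 2) as bars. Igf2r and Grb10 differ by a small amount between groups that do not overlap, Ndn overlaps, and Dlk1 and Mest stand under 1 CPM in all 4 libraries.

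Of the 10 genes, 5 passed the filter on low counts, which asks for about 10 counts in at least 2 libraries. Igf2r, Grb10 and Ndn met it in all 4 libraries. Dlk1 met it in the 2 Scr libraries only and Mest in the 2 miR-99 KD libraries only. Each of these 2 genes thus entered only through the group where it was high. H19, Igf2, Plagl1, Meg3 and Peg3 were not tested. edgeR called 0 of the 5, as it called 0.0% of 15320 genes tested (leaving out miR-99 KD 1 gave 1013 calls, leaving out miR-99 KD 2 gave 437, and no member was among them), and 0 of the 5 had an unadjusted p under 0.05, against 15.6% of all genes, of which 5.97% were above and 9.63% below Scr. DESeq2 also called 0, and gave an adjusted p for Igf2r and Grb10 only, where it called 6.85% of 12943 genes, 1.96% higher and 4.89% lower. Its 887 calls became 131 with Scr 1 left out, 27 with Scr 2 left out and 1506 with miR-99 KD 1 left out. The groups did not overlap in 4 of the 5, with 3 higher and 1 lower in miR-99 KD. Among all genes tested the groups did not overlap in 50.5%, with 24.5% higher and 26.0% lower. The median log2 difference of the 5 was 0.22 and that of all genes tested 0.02. Both are descriptions, since 2 of the 5 entered through the group where they were high.

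**Figure D3:**
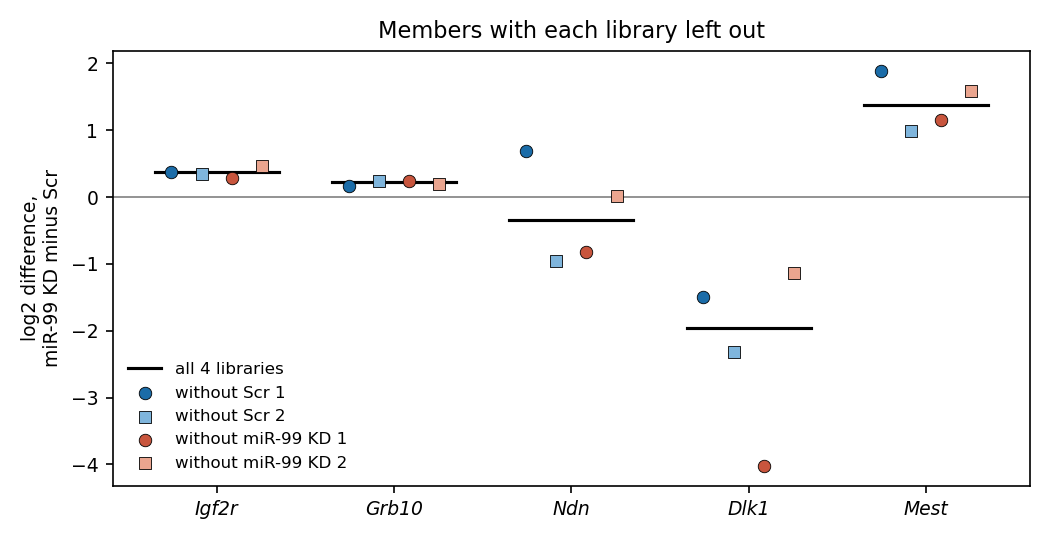
Log2 difference (miR-99 KD minus Scr, edgeR) of the 5 tested imprinted growth genes over all 4 libraries (line) and with each library left out (points). Igf2r stays between 0.28 and 0.47 and Grb10 between 0.17 and 0.25, Ndn crosses 0, and Dlk1 runs from -4.02 to -1.14.

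A wider list of 61 other genes reported as imprinted in some mouse tissue was read in the same fit, 60 of which were in the files and 41 of which were tested. edgeR called 0 of them (6 with miR-99 KD 1 left out, 3 with miR-99 KD 2 left out), and 5 higher and 5 lower had an unadjusted p under 0.05. Among all genes tested, 5.97% were higher and 9.63% lower at an unadjusted p under 0.05. In the list the groups did not overlap in 22 of the 41, with 10 higher and 12 lower, against 50.5% of all genes. The median log2 difference of the list was -0.12. DESeq2 called 1.96% of all genes higher and 4.89% lower. Of the 33 listed genes with an adjusted p it called 2 higher, Gatm and Nap1l5, and 3 lower, Sgce, Tspan32 and Atp10a. These calls were lost without either Scr library. Those of Sgce and Tspan32 were also lost without miR-99 KD 1, and those of Tspan32, Atp10a and Nap1l5 without miR-99 KD 2. With the replicate block DESeq2 called 2, Sgce and Atp10a.

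Gatm, an enzyme of creatine synthesis, stood at 313 and 339 CPM in Scr and at 469 and 571 CPM in miR-99 KD. The log2 difference stood at 0.67 ± 0.16 (SE, n = 2 per group), with an edgeR adjusted p of 0.227 and a DESeq2 adjusted p of 0.0044. Sgce, epsilon-sarcoglycan, a membrane protein of the paternally expressed Peg10 domain, stood at 14.1 and 18.1 CPM in Scr and at 4.59 and 7.04 CPM in miR-99 KD. Its log2 difference came to -1.47 ± 0.32 (SE, n = 2 in each group), with an edgeR adjusted p of 0.220 and a DESeq2 adjusted p of 0.0073. Peg10 itself, chosen after its values were seen, had 1 to 8 counts per library. Tspan32, a tetraspanin of blood cells, stood at 224 and 240 CPM in Scr and at 163 and 163 CPM in miR-99 KD. Atp10a, a lipid flippase, stood at 43.1 and 64.1 CPM in Scr and at 29.9 and 16.9 CPM in miR-99 KD. Nap1l5, of the nucleosome assembly family, stood at 1.20 and 0.515 CPM in Scr and at 2.84 and 6.02 CPM in miR-99 KD.

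Genes of IGF and insulin signalling were measured beside Igf2r and Grb10, 36 of 46 of which were tested. edgeR called 0 (2 with miR-99 KD 1 left out, 1 with miR-99 KD 2 left out), and 2 higher and 3 lower had an unadjusted p under 0.05. At that p 5.97% of all genes tested were higher and 9.63% lower. The median log2 difference of the list was -0.04, and the groups did not overlap in 14 of the 36, against 50.5% of all genes. Igf1, the ligand that stays in use after birth, had 445 and 149 counts in Scr against 337 and 372 in miR-99 KD. The insulin gene Ins2 had 1 count in miR-99 KD 2 and 0 elsewhere. Igf1 is also a known product of macrophages, whose 12 marker genes summed to 730 and 262 CPM in Scr and to 747 and 533 CPM in miR-99 KD. Igf1 and the marker sum were both lowest in Scr 2, and the part of macrophages in the level of Igf1 was not tested.

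Neither signalling receptor passed the test. Igf1r, the receptor through which both IGF ligands signal and a published target of miR-99, stood at 18.8 and 20.4 CPM in Scr and at 16.4 and 25.4 CPM in miR-99 KD, with a log2 difference of 0.09 and a 95% interval of -0.60 to 0.78. Insr, the insulin receptor, stood at 15.1 and 9.92 CPM in Scr and at 12.7 and 18.4 CPM in miR-99 KD, with a log2 difference of 0.31 and an interval of -0.52 to 1.14. Both genes overlapped between the groups. Of the adaptors below them, Irs2 stood at 32.9 and 42.7 CPM in Scr and at 41.5 and 32.1 CPM in miR-99 KD, whereas Irs1 had 1 count in Scr 2 and 0 elsewhere. The intervals allow changes of Igf1r and Insr as large as that of Igf2r.

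Of the 34 IGF and insulin signalling genes with an adjusted p DESeq2 called 1 lower and 0 higher. Over all genes it called 4.89% lower and 1.96% higher. The gene called was Akt2, a kinase that carries the insulin signal. Akt2 stood at 59.3 and 71.3 CPM in Scr and at 42.6 and 32.5 CPM in miR-99 KD. The log2 difference stood at -0.80 ± 0.21 (SE, n = 2 per group), with an edgeR adjusted p of 0.232 and a DESeq2 adjusted p of 0.0279. The DESeq2 call was lost when either Scr library or miR-99 KD 2 was left out, and with the replicate block, at an adjusted p of 0.129. Inpp5d, the phosphatase SHIP1 that opposes this signal, stood at 238 and 269 CPM in Scr and at 190 and 156 CPM in miR-99 KD, with a DESeq2 adjusted p of 0.0524. Igfbp4, a secreted protein that binds IGFs, stood at 273 and 319 CPM in Scr and at 235 and 185 CPM in miR-99 KD. Pik3cb, a catalytic subunit of PI 3-kinase, stood at 41.8 and 42.5 CPM in Scr and at 79.5 and 51.6 CPM in miR-99 KD. Grb7, a relative of Grb10, had 0 and 7 counts in Scr against 75 and 41 counts in miR-99 KD, with a DESeq2 adjusted p of 0.0595. It passed the filter through the miR-99 KD libraries only, and DESeq2 called it when all gene rows entered its fit and, at an adjusted p of 0.0492, with the replicate block.

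**Figure D4:**
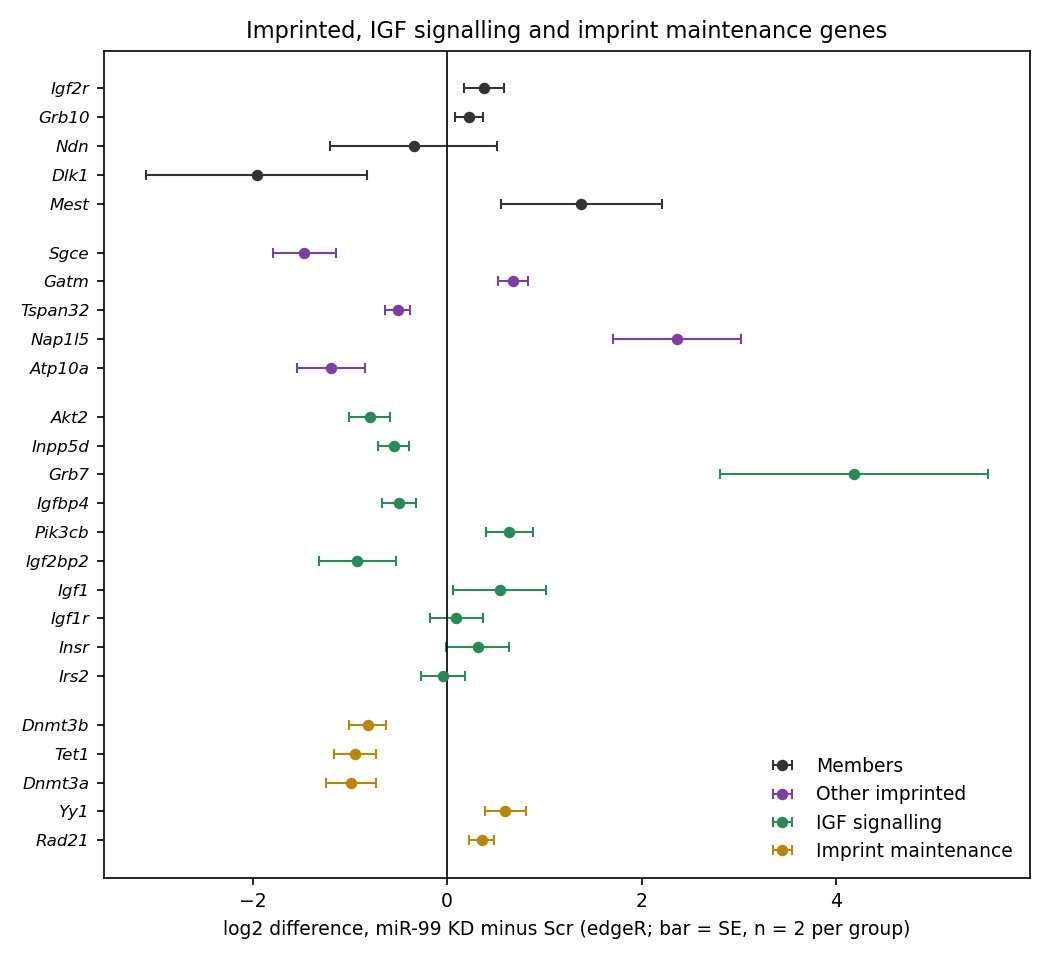
Log2 differences (miR-99 KD minus Scr) from edgeR with SE bars for the tested imprinted growth genes and for named genes of 3 wider lists. These are other imprinted genes, IGF and insulin signalling, and imprint maintenance. Of the fetal list only Igf2bp2, which is also on the IGF list, is drawn, among the IGF genes. Igf2r and Grb10 lie close to 0 with short bars, Dlk1 and Mest have bars of about 1 on either side, and the edgeR adjusted p of each gene drawn is above 0.05.

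Genes that set, keep or oxidise the methylation marks of imprinted regions were tested in 21 of 22 cases. edgeR called 0 (1 with either miR-99 KD library left out), and 2 higher and 3 lower had an unadjusted p under 0.05. At that p 5.97% of all genes tested were higher and 9.63% lower. Of the 20 listed genes with an adjusted p DESeq2 called 3 lower and 0 higher, where over all genes it called 4.89% lower and 1.96% higher. The calls in the list were lost when either Scr library was left out. With the replicate block DESeq2 called 0 of the list. Dnmt3b, a methyltransferase that sets new marks, stood at 74.8 and 96.7 CPM in Scr and at 51.4 and 45.7 CPM in miR-99 KD, with a DESeq2 adjusted p of 0.0100. Dnmt3a, its relative, stood at 41.6 and 64.7 CPM in Scr and at 27.6 and 26.0 CPM in miR-99 KD, with a DESeq2 adjusted p of 0.0193. Tet1, which oxidises methylcytosine, stood at 38.2 and 42.1 CPM in Scr and at 17.8 and 23.9 CPM in miR-99 KD, with a DESeq2 adjusted p of 0.0097. Their edgeR adjusted p lay between 0.224 and 0.231. The DESeq2 call of Tet1 was also lost without miR-99 KD 1, and those of Dnmt3b and Dnmt3a without miR-99 KD 2. Of the 21 genes, 4 were higher and 8 lower without overlap, against 24.5% and 26.0% of all genes. Yy1, a zinc finger factor that binds Peg3 control regions, stood at 26.3 and 31.2 CPM in Scr and at 37.7 and 49.3 CPM in miR-99 KD, and Rad21, a cohesin subunit that works with CTCF, at 111 and 104 and at 133 and 143 CPM. DNA methylation was not measured.

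Fetal growth regulators that act beside Igf2 in the fetal stem cell were mostly low. Of 10 genes, 6 were tested and edgeR called 0 (1 with miR-99 KD 2 left out), with 0 higher and 2 lower at an unadjusted p under 0.05, while DESeq2 called 1 lower, Hmga2, a chromatin protein of fetal stem cells. At that p 5.97% of all genes tested were higher and 9.63% lower. DESeq2 gave 5 of the list an adjusted p, and over all genes it called 1.96% higher and 4.89% lower. Of the 6 genes tested, 0 were higher and 3 lower without overlap, against 24.5% and 26.0% of all genes. The median log2 difference of the list was -0.02. Hmga2 stood at 3.47 and 5.01 CPM in Scr and at 1.17 and 1.05 CPM in miR-99 KD, with an edgeR adjusted p of 0.227 and a DESeq2 adjusted p of 0.0400. The DESeq2 call was lost with each of the 4 libraries left out in turn and with the replicate block. Igf2bp2, which binds Igf2 mRNA, stood at 5.32 and 3.71 CPM in Scr and at 2.16 and 2.60 CPM in miR-99 KD. Mycn stood at 67.0 and 73.9 CPM in Scr and at 40.1 and 53.1 CPM in miR-99 KD. Lin28a, an RNA-binding protein of early cells, stood at 1.85 and 1.37 CPM in Scr and at 11.6 and 0.979 CPM in miR-99 KD, and Arid3a at 12.5 and 9.41 and at 24.0 and 11.3 CPM. The high value of Lin28a rests on miR-99 KD 1, and Lin28b had 0 counts in all 4 libraries.

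Markers of cell types were read in the same libraries, and edgeR called 0 in each marker list. The share over all genes that DESeq2 called was 1.96% higher and 4.89% lower. How its calls in the marker lists change with a library left out was not tested. The 24 stem cell markers were all detected and summed to 3752 and 3740 CPM in Scr and to 2035 and 2372 CPM in miR-99 KD, and DESeq2 called 11 lower and 0 higher. The 16 erythroid markers summed to 10603 and 9970 CPM in Scr and to 15322 and 17026 CPM in miR-99 KD, and DESeq2 called 7 higher and 0 lower. The 16 neutrophil markers summed to 8604 and 6365 CPM in Scr and to 30025 and 5359 CPM in miR-99 KD, so that the groups overlapped, and DESeq2 called 0. The 13 B cell markers summed to 99.3 and 46.4 CPM in Scr and to 347 and 99.6 CPM in miR-99 KD, with 3 called higher by DESeq2. Endothelial and stromal cells, which can express Igf2, Dlk1, Meg3, Mest and Peg3, had all 18 markers detected, with sums of 266 and 227 CPM in Scr against 285 and 204 CPM in miR-99 KD that overlapped, and 2 called higher and 2 lower by DESeq2. T and NK cell markers, 10 of 12 detected, summed to 223 and 229 CPM in Scr and to 166 and 125 CPM in miR-99 KD, with Gzma and Ncr1 at 0 and 1 called lower by DESeq2. The part of any of these cells in the levels of the imprinted growth genes was not tested.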

How the data were processed

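The authors deposited whole-number counts for each Ensembl gene ID, with a file for each library and no normalisation. Per the labels' protocols, total RNA of cells sorted into Trizol LS was amplified with a SMARTer kit. The submitters' processing notes name STAR, Picard, HTSeq, DESeq2 and build mm9. The annotation release and the use of strand are not given in the sources. Without molecular identifiers PCR copies are counted too. Rows without a gene name (uncounted reads and pasted totals) were left out. Reads with no feature made up 8.31% to 13.8% of all reads per library, reads with several alignments 18.0% to 21.9% and ambiguous reads 1.16% to 1.33%.

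Symbols, exon lengths and transcripts came from GENCODE M21 and matched 44585 of 45232 rows. Promoter and microRNA sequences came from RefSeq (GRCm38.p6). A promoter entry was matched for 9 of the 10 members, all but H19.

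The main test was edgeR 4.0.16 (quasi-likelihood, filterByExpr, TMM) in R 4.3.3, two-sided, over all genes kept, with Benjamini-Hochberg adjustment at 0.05. DESeq2 1.42.0, limma-voom (limma 3.58.1), other scalings, other filters, a replicate block and leaving out each library were alternatives. DESeq2 left 2377 genes without an adjusted p. The fits were tested on simulated data. SE and intervals come from the edgeR fit.

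Named were all 10 members, the 5 genes of each wider list with the smallest edgeR p, and Igf1, Ins2, Igf1r, Insr, Irs1, Irs2, Rian, Mirg and 6 microRNA rows. Kit, Ly6a, Copg2, Snrpn, Magel2, Usp29, Airn, Peg10, Kcnq1ot1 and Mkrn3 were chosen after their values were seen. The members and lists were chosen with earlier results of these data known.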

Additional observations from a re-analysis of the deposited data

How the results depend on the processing

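None of the 5 tested members passed 0.05 in any of 52 recomputed values, 3 of which had no adjusted p, and the lowest adjusted p was 0.193, while their direction held in 50. The exceptions were both of Ndn, whose log2 difference turned to 0.70 without Scr 1 and 0.01 without miR-99 KD 2, within a range of -0.96 to 0.70 over the libraries left out. In the other 4 members the groups did not overlap, so leaving out a library could hardly turn their direction. The count of 50 is therefore a description and not a check. The median of the members tested was -0.36 without a filter, where 9 members enter, and -0.29 to 0.53 without each library, where the members tested change too. Without a filter Peg3, which was not tested in the main fit, had an edgeR adjusted p of 0.0587. That value rests on Scr 1, with 42 counts there and 0 in each other library. Under a filter at 10 CPM in 2 libraries only Igf2r and Grb10 were left, and the groups did not overlap in 2 of 2.

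Over all genes edgeR called 1064 without a filter, DESeq2 887, and edgeR 0 to 1013 without each library, where leaving out miR-99 KD 1 gave 1013 and leaving out miR-99 KD 2 gave 437. Where a group was down to 1 library, the spread of the other group stood in for it. Other imprinted genes passed in 5 cases without a filter, 5 by DESeq2 and 0 to 6 without each library. Signalling genes passed in 2, 1 and 0 to 2 cases, imprint maintenance genes in 3, 3 and 0 to 1, and fetal genes in 2, 1 and 0 to 1. With the replicate block edgeR called 0 genes and DESeq2 390, and DESeq2 called 2 of the other imprinted genes and 0 of the imprint maintenance genes, 1 of IGF signalling, which was Grb7 and not Akt2, and 0 of the fetal genes. Between like-numbered libraries, deviations from the group means had a correlation of 0.057. With 2 libraries in each group both pairs must give the same value, so this is 1 check and not 2. The numbers were not read as pairs. DESeq2 called 27 to 1506 genes without each library. These DESeq2 runs were added after seeing the data. So were those of its set-up, since 4 set-ups were run before the one in the text was settled. On the genes kept by the filter it called 887 with its independent filtering at 0.1, as in the text, and 896 at 0.05, and on all gene rows it called 833 at either level. No member was called in any of the 4, and the wider lists had the same counts except that of IGF signalling, where Grb7 made it 2 on all gene rows. Why the counts moved was not tested. Depth limits the 8 low members, which stood at 44 counts or fewer in every library, so that small changes could not be seen in them.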

Other observations

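The files of 3 libraries hold pasted totals whose headings give other numbers. The total of Scr 1 is headed Scr-2, which also stands in the file of miR-99 KD 1, that of miR-99 KD 1 Zip99a-2 and that of miR-99 KD 2 Zip99a-1. The file of miR-99 KD 2 also holds a total of 29793890 under the heading Scr-1, which is the gene total of none of the 4 libraries, where Scr 2 has 28422748. Groups were taken from the labels throughout.

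Kcnq1ot1, a long paternal RNA of the imprinted domain beside Igf2, was chosen after its values were seen. It stood at 104 and 95.6 CPM in Scr and at 86.8 and 163 CPM in miR-99 KD, and the groups overlapped. Mkrn3, of the imprinted domain that holds Ndn, was also chosen in this way and stood at 3.77 and 2.82 CPM in Scr and at 0.227 and 1.20 CPM in miR-99 KD, with an edgeR adjusted p of 0.313 and a DESeq2 adjusted p of 0.169. Magel2 of the same domain had 0 counts in all 4 libraries. Snrpn had 68 and 11 counts in Scr against 53 and 87 in miR-99 KD.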
